A study of Mus musculus with 3 samples.

Results

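The axon guidance ligands and receptors of the mouse choroid plexus epithelium (CPE) were examined, that is the semaphorins with their plexin and neuropilin receptors, the ephrins with their Eph receptors, the Slit ligands with Robo1 to Robo4, and the netrins with the Unc5 receptors. The members were every probe on the array, control probes aside, whose gene name begins like a gene of these families. The rule used names and no measured value, and gave 128 probes of 70 gene names among 41174 probes of 21597 gene symbols. *Unc50* and *Unc5cl* match by name only and are not guidance receptors, which leaves 68 guidance genes, and *Ntn2l* is the older symbol of *Ntn3*. The CPE is the epithelial sheet that covers the choroid plexus in the brain ventricles and secretes cerebrospinal fluid. It was cut by laser from 20 µm brain sections, out of the lateral ventricles, in 3 healthy adult C57BL/6 mice aged 18 to 21 weeks. The mice form 1 group with no treatment. Each CPE RNA was amplified, labelled with Cy5 and hybridised against a common Cy3-labelled reference made from RPE, the retinal pigment epithelium of the eye, and the adjoining choroid of C57BL/6 mice, on an array of its own.

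Guidance molecules were named for steering growing axons, and they also act between epithelial cells and on blood vessels. Secreted class 3 semaphorins bind neuropilins, which pair with plexins to carry the signal into the cell, whereas membrane semaphorins mostly bind plexins directly. Ephrins are held in the membrane of one cell and bind Eph receptor tyrosine kinases on its neighbour, Slit proteins bind Robo receptors, and netrin-1 binds Unc5 receptors and DCC. The choroid plexus lies between blood and cerebrospinal fluid, into which it is known to release guidance factors such as Slit proteins.

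Ratios below are log2 values of CPE over the reference, so 1 is 2-fold higher in CPE and -1 is 2-fold lower. Means are over 3 mice and are given ± SE from the limma fit. A probe was past the threshold at a Benjamini-Hochberg adjusted p under 0.05 and a mean change of at least 2-fold, with adjustment over all 25847 probes tested, and a gene stands for its brightest tested probe. The reference is 1 RNA. CPE was in Cy5 on every array, and any preference of a probe for Cy5 or Cy3 is therefore part of its ratio. The CPE and the reference are different tissues. A lower ratio can come from fewer cells that express a gene or from less RNA per cell, and these cannot be told apart here.

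The arrays differed in signal. In the CPE channel 85, 58 and 111 of the 128 member probes were well above background in mice 1, 2 and 3, against 58.5%, 46.0% and 85.6% of all probes. Of the CPE markers, 9 of 10 genes on the array were higher in CPE and past the threshold, with a median log2 ratio of 3.23. Of the RPE and melanocyte markers 8 of 9 were lower, with a median of -5.26. In CPE 8 of the 9 were still well above background on all arrays, and *Tyr* was on none. The median percentile of this list in CPE was 74.7 among all probes. Photoreceptor markers were lower in 8 of 8 genes, with a median of -4.78, and neuron markers in 5 of 7, with a median of -2.82. In CPE 8 of 8 photoreceptor and 6 of 7 neuron markers were well above background on all arrays, at median percentiles of 82.3 and 65.5. The summed level of the photoreceptor list in the reference, the log2 of its summed normalized signals, was 17.4, near the 17.6 to 17.7 of the RPE and melanocyte list. Whether neural retina was part of the reference is not given in the sources used here, so every lower ratio is against an RNA that also carried these transcripts. Endothelial markers were well above background in CPE in 9 of 9 genes, and 2 of them were higher there.

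The neuropilins, which are the co-receptors of class 3 semaphorins, were past the threshold in opposite directions. Their 250 bases upstream of the start site are shown because the 2 genes are close relatives with opposite ratios, followed by those of *Sema3c* and *Ntng1*, the ligand genes with the lowest ratios. The sequences are from RefSeq, build GRCm38.p6, each 5′ to 3′ on the strand of its gene. *Nrp1* is at chr8:128358823-128359072 on the plus strand, *Nrp2* at chr1:62703067-62703316 on the plus strand, *Sema3c* at chr5:17574566-17574815 on the plus strand and *Ntng1* at chr3:110143473-110143722 on the minus strand. Capitals mark the GC box, GGGCGG read on either strand.
Nrp1: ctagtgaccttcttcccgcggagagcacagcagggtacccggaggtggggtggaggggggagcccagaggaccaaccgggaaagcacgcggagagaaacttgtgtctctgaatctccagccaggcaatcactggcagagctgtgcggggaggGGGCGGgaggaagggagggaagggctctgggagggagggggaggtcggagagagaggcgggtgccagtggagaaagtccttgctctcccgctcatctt
Nrp2: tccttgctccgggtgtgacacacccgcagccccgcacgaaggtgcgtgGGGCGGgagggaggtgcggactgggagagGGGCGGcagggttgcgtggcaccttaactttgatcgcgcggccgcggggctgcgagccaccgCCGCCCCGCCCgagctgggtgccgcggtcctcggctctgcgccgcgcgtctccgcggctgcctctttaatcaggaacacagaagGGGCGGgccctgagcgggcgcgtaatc
Sema3c: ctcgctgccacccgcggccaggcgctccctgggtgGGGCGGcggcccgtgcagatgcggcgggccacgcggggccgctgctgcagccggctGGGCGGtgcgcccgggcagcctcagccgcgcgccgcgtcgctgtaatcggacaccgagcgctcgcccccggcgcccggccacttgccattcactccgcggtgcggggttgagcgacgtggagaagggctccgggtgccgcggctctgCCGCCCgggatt
Ntng1: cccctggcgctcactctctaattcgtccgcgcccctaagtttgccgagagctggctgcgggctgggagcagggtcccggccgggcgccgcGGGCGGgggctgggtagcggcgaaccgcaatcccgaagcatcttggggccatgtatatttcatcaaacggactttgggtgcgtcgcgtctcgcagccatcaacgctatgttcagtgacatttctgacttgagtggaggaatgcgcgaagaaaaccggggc

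The window of *Nrp1* held 1 GC box and 11 CpG dinucleotides, that of *Nrp2* 5 and 32, that of *Sema3c* 3 and 39, and that of *Ntng1* 1 and 25. Over all 32851 windows of this length the GC box was found in 32.7% and the median number of CpG was 6. Of 77 windows of 61 member genes, 55 (71.4%) held a GC box. The TATA box letters, TATAAA, were in 2.60% of member windows against 12.4% of all, and the OTX and CRX core letters, TAATCC, in 1.30% against 6.25%, both read on either strand. None of the 4 windows shown held either of these. Among these 4 genes a GC box stood upstream of the higher one and of the lower ones alike, and a match of letters is a description and not a bound site.

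Of the 70 gene names, 64 had a tested probe and 15 were past the threshold (23.4%), beside 20.1% of all 15597 genes tested. Higher in CPE were 4 genes (6.25%, all genes 8.84%) and lower 11 (17.2%, all genes 11.2%). The median log2 ratio of the members was 0.0032 and that of all genes -0.015. As probes, 19 of 88 were past the threshold, 4 higher and 15 lower, beside 17.3% of all probes (7.09% higher and 10.2% lower). The members as a set thus had a share near the background, and the results lie in single genes. All 15 genes had the same sign in all 3 mice, as did 3124 of the 3130 past the threshold over all genes. The threshold thus nearly fixes this agreement. An adjusted p under 0.05 at any size was reached by 31 of the 64 genes, 13 with a positive and 18 with a negative ratio. Of all 15597 genes tested, 6802 reached it, 3154 with a positive and 3648 with a negative ratio. The share of higher genes among those past the threshold, 26.7%, depended on the scaling. With median centring in place of loess, which moved the median of all genes to 0.23 and left that of the members at -0.0019, 8 of 15 genes were higher (53.3%). It was 38.1% of 21 genes with a smaller normexp offset, 37.0% of 27 with the scanner's processed signals, 38.9% of 18 with array weights and 42.1% of 19 without mouse 3. With limma's treat test against a 2-fold change it was 14.3% of 7, and with the probe of smallest change per gene 10% of 10.

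**Figure D1:**
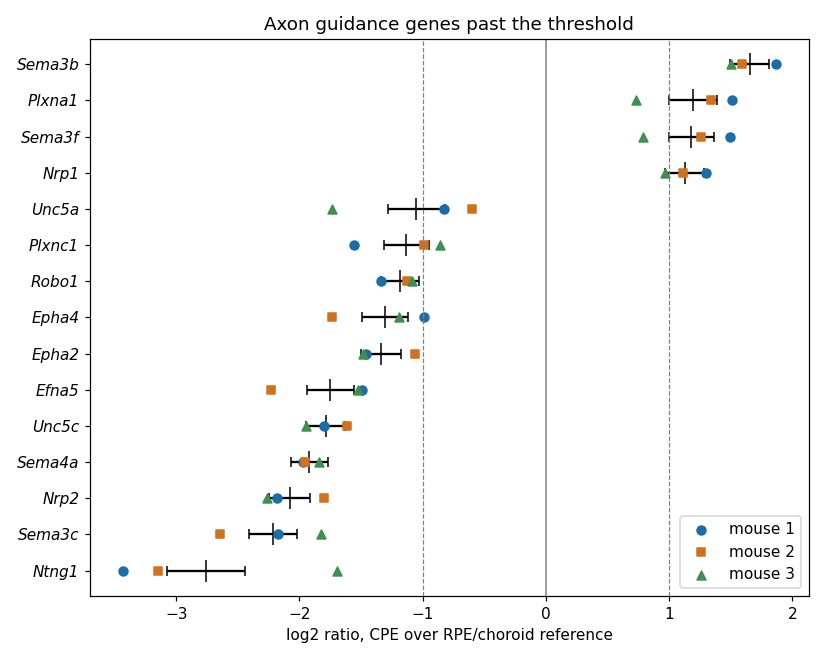
Log2 ratio of CPE over the RPE/choroid reference (horizontal axis) for the 15 axon guidance genes past the threshold. Symbols are the 3 mice, the black tick and bar are the mean ± SE of the limma fit, and dashed lines mark a 2-fold change. The 4 higher genes reach 1.65 for *Sema3b*, the 11 lower genes -2.76 for *Ntng1*, and in each gene all 3 mice lie on 1 side of 0.

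Among the secreted class 3 semaphorins, *Sema3b* and *Sema3f* were higher in CPE and *Sema3c* was lower. *Sema3b*, a ligand that signals through neuropilins, had log2 ratios of 1.87, 1.59 and 1.50 in mice 1, 2 and 3. The mean was 1.65 ± 0.16, which is 3.14-fold (adjusted p = 0.000227). Its probe (chromosome 9, 107456662 to 107456721, mm8) ranked at percentile 97.9, 97.7 and 98.0 of all probes in the 3 mice and 92.3 in the reference, so the spread between mice was small beside the difference. *Sema3f*, a ligand that prefers neuropilin-2, had ratios of 1.49, 1.26 and 0.78 and a mean of 1.18 ± 0.18 (adjusted p = 0.00213). Its other tested probe, 588 bases away, gave 1.49, 1.25 and -0.14, with a mean of 0.87 ± 0.30, and missed the threshold (adjusted p = 0.0537). Mice 1 and 2 were thus alike on both *Sema3f* probes, and mouse 3 was the lower one.

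*Sema3c*, whose product acts through both neuropilins and is known from heart and vessel development, had ratios of -2.17, -2.65 and -1.83. The mean of -2.21 ± 0.19 was a 4.64-fold lower signal in CPE (adjusted p = 0.000141). A second probe 150599 bases upstream gave -1.77 ± 0.16 (adjusted p = 0.000162), although it was well above background in CPE in only 2 mice. Both *Sema3c* probes were therefore past the threshold in the same direction. The remaining class 3 genes missed it. *Sema3a*, the best known repellent of the class, had a mean of -0.34 ± 0.17 (adjusted p = 0.155) and was well above background in CPE on 1 array. *Sema3e*, which binds plexin D1 without a neuropilin, had 0.26 on its brightest probe and -0.45 on another, and *Sema3g* and *Sema3d* had -0.03 and -0.28.

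The receptors of these ligands were split too. *Nrp1* had ratios of 1.30, 1.12 and 0.96, with a mean of 1.13 ± 0.16 (2.18-fold, adjusted p = 0.00128). *Nrp2* had ratios of -2.18, -1.80 and -2.26, with a mean of -2.08 ± 0.17 (4.22-fold lower, adjusted p = 9.46e-05). Each neuropilin was past the threshold on its own, and the 2 ratios come from different probes. The probe of *Nrp1* (chromosome 8, 131388840 to 131388899, mm8) ranked at percentile 82.6 in CPE and 67.7 in the reference, and that of *Nrp2* (chromosome 1, 62752831 to 62752890) at 78.0 and 93.3. The second tested probe of *Nrp1*, 34377 bases upstream, gave 1.17, -0.05 and 0.39 and a mean of 0.51 ± 0.24 (adjusted p = 0.129), so the call of *Nrp1* rests on 1 probe. *Nrp2* had 1 probe only.

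All 9 plexins, the receptors that carry the semaphorin signal, were well above background in CPE on all arrays. *Plxna1*, a partner of neuropilins, had ratios of 1.51, 1.34 and 0.73 and a mean of 1.19 ± 0.19 (2.29-fold, adjusted p = 0.00251). Its second probe, 2663 bases upstream, gave 0.77, 0.52 and 0.02, with a mean of 0.44 ± 0.19 (adjusted p = 0.102). *Plxnc1*, the receptor of semaphorin 7A, had ratios of -1.55, -0.99 and -0.86 and a mean of -1.13 ± 0.18 (adjusted p = 0.00266). Its second probe gave 0.06, -0.21 and 0.05 and lay at -0.04, and it was well above background in CPE in only 1 mouse. The calls of *Plxna1* and *Plxnc1* thus each rested on the brightest probe, and *Plxnc1* fell under the 2-fold limit without mouse 1, at -0.92, and with median centring, at -0.82. *Plxnb2*, a receptor of class 4 semaphorins, had the highest rank of any member probe (chromosome 15, 88983584 to 88983643, mm8), at percentile 98.6, 98.4 and 98.6 in the 3 mice and 96.9 in the reference. Its ratios of 1.06, 0.77 and 0.82 gave a mean of 0.88 ± 0.16 (adjusted p = 0.00368), below the 2-fold limit, which it passed with median centring at 1.69. Its other probe ranked at 53.0. *Plxna2* missed the limit on its brightest probe, at -0.79 ± 0.15, and passed it on another probe, at -1.02 ± 0.19 (adjusted p = 0.00481). The remaining *Plxna2* probe lay at -0.22 ± 0.18 (adjusted p = 0.372), and the brightest was at -0.19 with median centring. The median of the 9 plexins was 0.38, and from 0.29 to 0.56 under the other scalings, and 7 of them had a positive ratio.

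Of the 13 membrane semaphorins, *Sema4a* alone was past the threshold, and it was lower in CPE. *Sema4a*, which is needed for the upkeep of photoreceptors and acts on T cells, had ratios of -1.97, -1.95 and -1.84 and a mean of -1.92 ± 0.15 (3.79-fold lower, adjusted p = 8.84e-05). The 3 mice differed by less for *Sema4a* than for any other gene past the threshold. A group of membrane semaphorins had positive ratios with an adjusted p under 0.05 and missed the 2-fold limit. These were *Sema4c* at 0.91 ± 0.19, *Sema4g* at 0.85 ± 0.23, *Sema6b* at 0.74 ± 0.17 and *Sema6d* at 0.71 ± 0.18. *Sema4c*, a ligand of plexin B2, had ratios of 1.31, 0.91 and 0.51. Without mouse 3 *Sema4c* and *Sema4g* passed the limit, at 1.11 and 1.19, and *Sema6d* did so with median centring, at 1.30. *Sema4c* and *Sema6b* were the only members well above background on all arrays in CPE and not on all arrays in the reference. *Sema6d*, a ligand of plexin A1, ranked at percentile 89.9, 90.9 and 86.9 in the 3 mice, just under the high class, and entered it without mouse 3 at 90.5. *Sema7a*, the ligand of plexin C1, had a ratio of -0.33 ± 0.19 (adjusted p = 0.197).

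**Figure D2:**
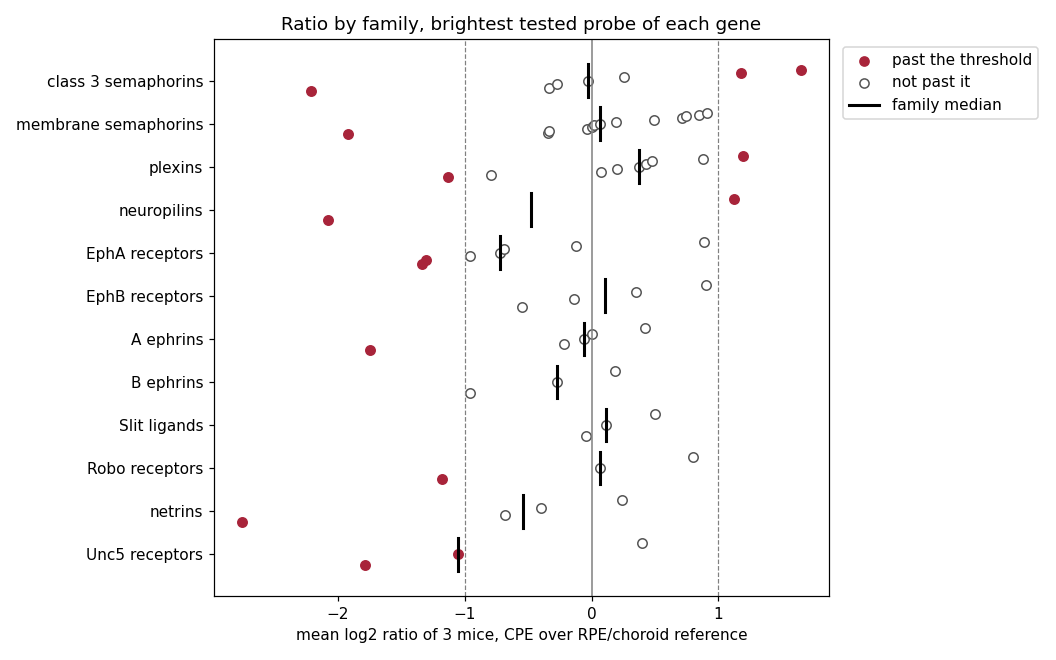
Mean log2 ratio of 3 mice, CPE over reference (horizontal axis), for the brightest tested probe of each gene by family, without *Unc50*. Filled circles are past the threshold, open circles are not, black bars are family medians and dashed lines mark a 2-fold change. Class 3 semaphorins, plexins and neuropilins hold filled circles on both sides, and the filled circles of the other families are all on the lower side.

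In the Eph and ephrin families every gene past the threshold was lower in CPE. *Efna5*, the ephrin-A5 ligand that sorts retinal axons in the visual map, had ratios of -1.49, -2.23 and -1.52 and a mean of -1.75 ± 0.19 (3.36-fold lower, adjusted p = 0.00045). *Epha4*, a receptor that binds ephrins of both classes, had -0.99, -1.74 and -1.20 and a mean of -1.31 ± 0.19 (adjusted p = 0.00149). Its second probe, 1059 bases away, gave -1.11 ± 0.24 (adjusted p = 0.00887). *Epha4* and *Efna5* were both lowest in mouse 2, and both *Epha4* probes were past the threshold. *Epha2*, an Eph receptor of many epithelia, had -1.46, -1.06 and -1.49 and a mean of -1.34 ± 0.16 (adjusted p = 0.000715). With median centring neither *Epha4*, at -0.71, nor *Epha2*, at -0.97, was past the threshold. The probe of *Epha4* still ranked at percentile 85.8 in CPE and that of *Efna5* at 84.4, the highest of the EphA receptors and of the A ephrins, so a lower ratio was not a signal near background.

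The EphA receptors had a median ratio of -0.72 over 7 tested genes, from -1.34 to -0.62 under the other scalings, and 1 of the 7 had a positive ratio. This was *Epha1*, an Eph receptor of skin and other epithelia, with ratios of 1.14, 1.49 and 0.03 and a mean of 0.89 ± 0.27 (adjusted p = 0.0341), for which mouse 3 stood apart. Without mouse 3 it passed the limit at 1.31, as did *Epha5* at -1.21. *Epha5*, *Epha7* and *Epha3* had negative ratios with an adjusted p under 0.05 that missed the 2-fold limit, at -0.96, -0.72 and -0.69 over all mice. *Epha3* was not well above background in CPE on any array, and its ratio (adjusted p = 0.0108) became -0.49 with no background correction. *Epha7* lay at 0.02 on its second probe. Only 3 of 9 EphA receptors were well above background in CPE on all arrays, against 7 in the reference.

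The EphB receptors and B ephrins held no gene past the threshold. *Ephb4*, the receptor that marks veins, had ratios of 1.22, 0.92 and 0.57 and a mean of 0.90 ± 0.18 (adjusted p = 0.006). *Efnb2*, its ligand and a marker of arteries, had -0.60, -1.16 and -1.12 and a mean of -0.96 ± 0.17 (adjusted p = 0.00439), and a second probe at 0.10. Both missed the 2-fold limit, on opposite sides of 0. *Ephb4* passed it without mouse 3, at 1.07, and *Efnb2* without mouse 1, at -1.14. With median centring *Ephb4* passed it at 1.29, whereas *Efnb2* was at -0.53 (adjusted p = 0.27). *Ephb3* had -0.55 ± 0.16 (adjusted p = 0.0269). *Efnb1*, the B ephrin with the highest rank at percentile 81.7, had -0.28 ± 0.20 and differed in sign between mice.

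The Slit ligands, of which Slit2 is the choroid plexus repellent best known from work on the developing forebrain, were well above background in CPE in 3 of 3 genes. *Slit2* ranked at percentile 78.3, 74.6 and 82.0, the highest of the family, with ratios of 0.20, -0.26 and 0.40 and a mean of 0.11 ± 0.18 (95% interval -0.31 to 0.53, adjusted p = 0.659). *Slit1* had 0.56, 0.53 and 0.41 and a mean of 0.50 ± 0.15 (adjusted p = 0.0322), below the limit, which it passed with the scanner's processed signals at 1.26, and *Slit3* had -0.04 on one probe and 0.51 on the other. Of the receptors, *Robo1* was past the threshold with ratios of -1.33, -1.12 and -1.09 and a mean of -1.18 ± 0.15 (2.27-fold lower, adjusted p = 0.000932), which became -0.99 with median centring. *Robo4*, the Robo receptor of endothelial cells, ranked at percentile 87.3 and had 0.93, 0.95 and 0.53, with a mean of 0.80 ± 0.16 (adjusted p = 0.00718), and 1.34, past the limit, with median centring. *Robo2* had 5 tested probes, from -0.30 to 0.09, and none was past the threshold. The Robo genes therefore differed in sign.

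*Robo4*, *Ephb4* and *Nrp1* are also expressed by blood vessels. The endothelial list had a median log2 ratio of 0.86, with *Plvap* and *Tie1* past the threshold at 1.21 each and *Cldn5*, *Tek* and *Kdr* at -0.54, -0.33 and -0.19, not past it. Its summed level was 13.6 to 13.8 in CPE and 13.3 to 13.5 in the reference. The part of endothelial RNA in these 3 ratios was not tested.

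Among netrins and Unc5 receptors, 3 genes were past the threshold and all were lower in CPE. They were 1 of 4 netrins and 2 of 3 Unc5 receptors tested, beside 11.2% of all genes past it and lower. *Ntng1*, which encodes netrin-G1, a membrane-anchored netrin of neurons that binds the protein NGL1 and not Unc5 or DCC, had ratios of -3.43, -3.15 and -1.69. Its mean of -2.76 ± 0.31 (6.77-fold lower, adjusted p = 0.000514) was the lowest of all members. A second probe of *Ntng1* gave -2.52, -2.14 and -2.03, with a mean of -2.23 ± 0.17 (adjusted p = 7.32e-05), and the remaining tested probe gave -0.08. The brightest and the second probe were well above background in CPE in 2 of 3 mice each, the remaining one in 1, so the size of the difference is less certain than its direction on the first 2 probes. *Ntn1*, the classical netrin, ranked at percentile 36.0 and had 0.24 ± 0.20 (adjusted p = 0.379). *Ntn2l* had the highest rank of the family, at 55.3, and -0.68 ± 0.16 (adjusted p = 0.0116), and *Ntn4* had -0.40 ± 0.18.

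*Unc5c*, a netrin-1 receptor of repelled axons, had ratios of -1.80, -1.61 and -1.95 and a mean of -1.79 ± 0.16 (3.45-fold lower, adjusted p = 0.000146). *Unc5a* had -0.83, -0.60 and -1.73 and a mean of -1.05 ± 0.23 (adjusted p = 0.00971). Mouse 3 carried the call of *Unc5a*, which was not past the threshold without it, at -0.71, and the probe was well above background in CPE in 2 mice. In mouse 3 the probe ranked at percentile 2.87 in CPE, against 47.4 and 54.7 in mice 1 and 2. The call thus leans on a CPE signal among the lowest of that array. *Unc5b*, the vascular member and the one of highest rank at percentile 55.6, had 0.72, 0.53 and -0.06 and a mean of 0.40 ± 0.19 (adjusted p = 0.14). The neuron list was lower in CPE as well, with 5 of 7 genes past the threshold and a median of -2.82. The summed level of that list was 10.6 to 11.2 in CPE and 14.1 to 14.3 in the reference, and its part in the ratios of *Ntng1*, *Unc5c* and *Unc5a* was not tested. The same holds for the RPE and melanocyte list, at 11.8 to 12.4 in CPE and 17.6 to 17.7 in the reference, and for the photoreceptor list, at 12.3 to 12.7 and 17.4. Of the stroma and mural markers 4 of 8 were lower and none higher, with a summed level of 14.2 to 14.8 in CPE and 16.8 to 17.0 in the reference. All 8 were well above background in CPE on all arrays, at a median percentile of 94.1. The astrocyte list held 3 lower and 1 higher of 6 genes, the macrophage list 2 lower of 5 and the Schwann cell list 2 lower of 3. The ependyma list held 2 higher of 3 tested genes, at 13.54 to 13.98 in CPE and 12.5 to 12.8 in the reference, and the oligodendrocyte list 2 higher of 4. The part of these cell types in the ratios of the guidance genes was not tested either.

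**Figure D3:**
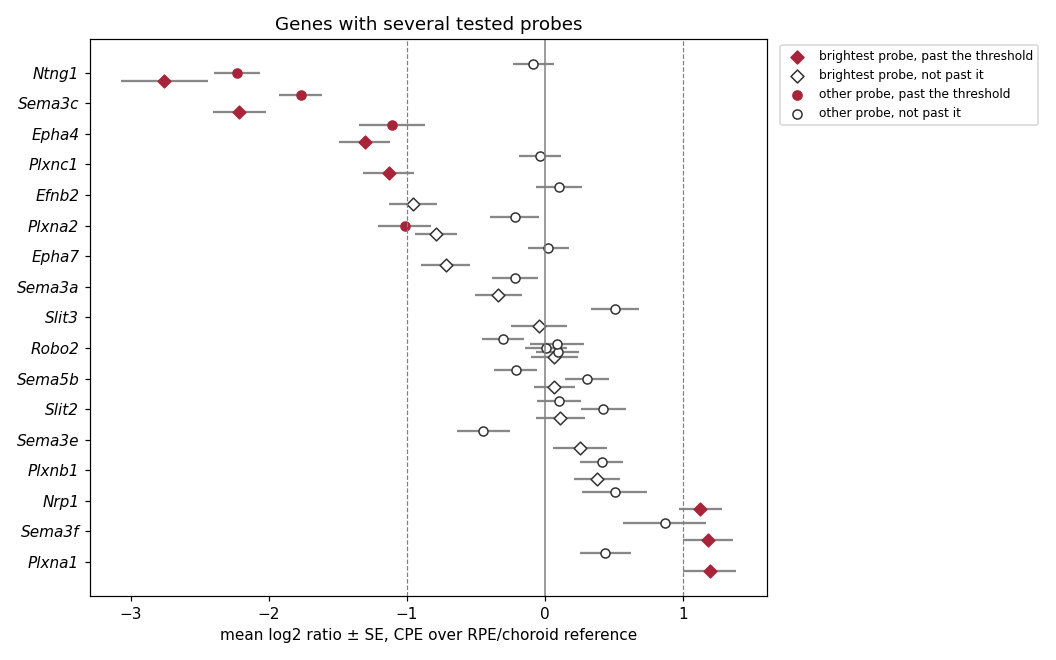
Mean log2 ratio ± SE, CPE over reference (horizontal axis), for every tested probe of the 17 genes with several tested probes. Diamonds are the brightest probe of a gene, circles its other probes, and filled symbols are past the threshold. *Sema3c* and *Epha4* have all symbols filled, whereas *Ntng1*, *Plxnc1*, *Nrp1*, *Sema3f* and *Plxna1* have an open circle nearer to 0 than the filled diamond.

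Probes of 1 gene often differed. Of 17 genes with several tested probes, 2 (*Sema3c* and *Epha4*) had all of them past the threshold in the same direction and 6 had some past it and some not. None had probes past it in opposite directions, 9 had no probe past it, and the sign of the ratio differed between probes in 6. Counting a gene by any of its probes added *Plxna2*, for 16 genes. The spread of the ratio between mice was a little wider for member probes than for all probes. Its median SD was 0.317 over the 52 member probes that were measured above background in CPE and reference alike on every array, and 0.282 over all 17945 such probes. The CPE level went the other way, with a median SD of 0.313 over these member probes and 0.338 over all. Mouse 3 gave the lowest ratio in 12 of the 13 member genes with a positive ratio and an adjusted p under 0.05 (92.3%), and in 76.2% of such genes over the whole array. In 10 of the 17 genes the probe nearer the 5′ end of the transcript deviated lower in mouse 2 than the probe nearer the 3′ end. The median difference of these deviations was -0.12, and it ran from -0.81 for *Nrp1* to 0.77 for *Sema3c*, so it had no common direction.

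For detection a gene counted if any of its probes passed, not only the brightest. Probes numbered 128 for the 70 member names and 34850 for all 21597 genes. Signal above background in CPE was found for 46 of the 70 gene names on all 3 arrays, 65.7% against 58.8% of all genes. In the reference it was 62, or 88.6% against 70.8%. In CPE all 9 plexins, both neuropilins, all 3 B ephrins and all 3 Slit ligands passed, as did 5 of 7 class 3 semaphorins, 8 of 13 membrane semaphorins, 4 of 5 A ephrins, 3 of 5 EphB receptors and 2 of 3 Robo receptors. The families seen least were the Unc5 receptors with 2 of 4, the EphA receptors with 3 of 9 and the netrins with 1 of 5. In the reference alone 18 genes passed on all arrays, and 6 genes passed in neither channel and were not tested, namely *Epha6*, *Epha8*, *Ephb2*, *Unc5d*, *Unc5cl* and *Ntng2*. Without mouse 2, whose array had the fewest member probes above background, 59 genes passed in CPE.

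**Figure D4:**
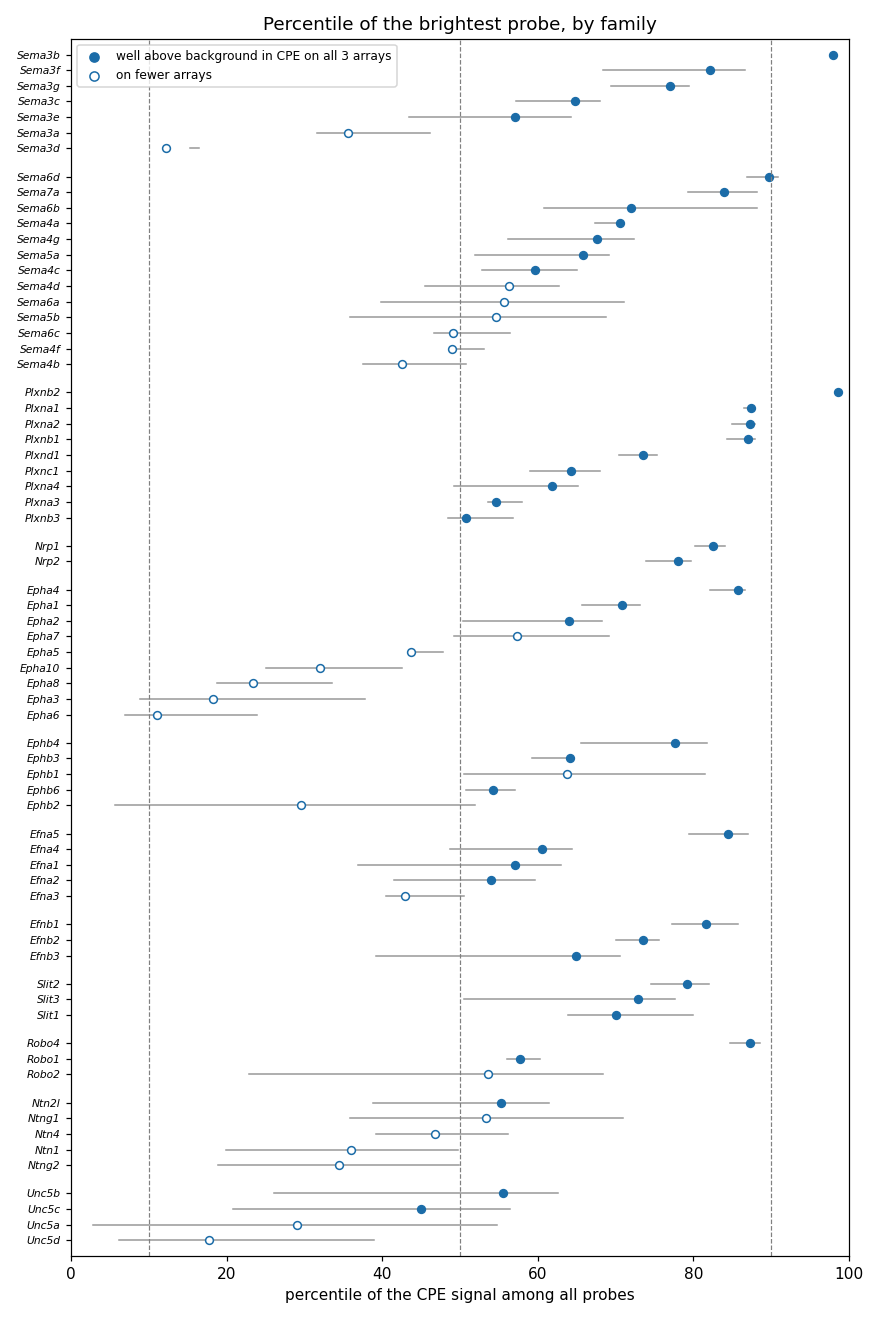
Percentile of the CPE signal among all 41174 probes (horizontal axis) for the brightest probe of each guidance gene, by family from class 3 semaphorins at the top to Unc5 receptors at the bottom. Circles are the percentile of the mean level, filled where the probe was well above background in CPE on all 3 arrays, and lines span the percentiles in the 3 mice, each ranked on its own array, so that a circle can lie outside its line. Dashed lines at 10, 50 and 90 separate the classes from very low to high, and *Sema3b* and *Plxnb2* are the circles past 90.

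By rank of the CPE signal, 3 gene names (4.29%) were in the high class, above the 90th percentile, against 15.7% of all genes. These were *Sema3b*, *Plxnb2* and, of those that match by name only, *Unc50* at 95.7. The moderate class, from the 50th to the 90th percentile, held 48 genes and the low class 19, and none was in the very low class. The median percentile was 60.1 for the members and 62.8 for all genes. A percentile places a probe on the array and does not order genes by transcript number, because probes differ in how well they hybridise.

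The partner and downstream genes were described from a list of 63 co-receptors, adaptors, signalling regulators and cytoskeletal targets. Of these, 61 were on the array, 55 were tested and 11 (20.0%) were past the threshold, beside 20.1% of all genes. Higher in CPE were 3 (5.45%), and lower 8 (14.5%), with a median ratio of -0.0031. Higher were *Cfl1*, the actin-severing protein cofilin, at 2.15 ± 0.18, the GTPase *Rhoa* at 1.58 ± 0.16 and the GTPase *Rac1* at 1.21 ± 0.17. The probe of smallest change of *Rhoa* was at -0.75 and that of *Rac1* at -0.45, neither past the threshold, so these calls rest on the brightest probe.

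The collapsin response mediator proteins, which link semaphorin 3A signals to microtubules, held 4 of the 8 lower genes. *Dpysl3* had ratios of -1.78, -2.60 and -1.26 and a mean of -1.88 ± 0.25 (adjusted p = 0.00105). *Crmp1* was at -1.76 ± 0.29, *Dpysl4* at -1.47 ± 0.17 and *Dpysl2* at -1.45 ± 0.15, while *Dpysl5*, the family's other tested gene, was at 0.30 ± 0.17 (adjusted p = 0.218). *Mical1*, an actin-oxidising enzyme downstream of plexins, was at -1.84 ± 0.16. *Dscam*, a netrin receptor, was at -1.61 ± 0.19, and *Chn1*, a regulator of Rac downstream of EphA4, at -1.48 ± 0.27. The lower genes also held *Chl1*, an adhesion molecule that pairs with neuropilin-1, at -1.28 ± 0.21, although its probe was well above background in CPE in 2 mice and its probe of smallest change lay at -0.05. *Chl1* was not past the threshold with the mean of its probes, at -0.66, or with no background correction, at -0.99. *Dpysl2* missed it with median centring, at -0.69, and *Crmp1* with the scanner's processed signals (adjusted p = 0.0724). Most of these genes are known from neurons. The neuron list was lower in CPE, as were several other marker lists given above, while some lists were higher. The part of any of these cell types in the ratios of the partner genes was not tested. With median centring 10 of the 55 genes were higher and 7 lower.

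**Figure D5:**
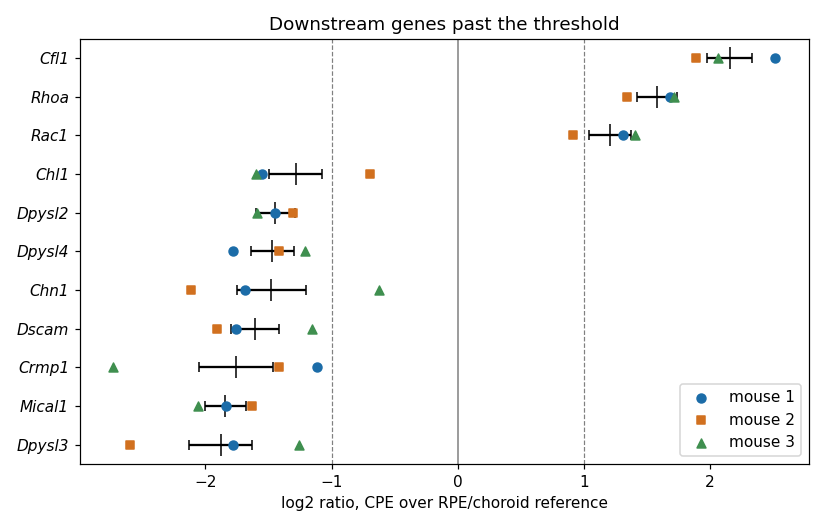
Log2 ratio of CPE over reference (horizontal axis) for the 11 partner and downstream genes past the threshold. Symbols are the 3 mice, the black tick and bar are the mean ± SE of the limma fit, and dashed lines mark a 2-fold change. *Cfl1*, *Rhoa* and *Rac1* lie to the right, and the 8 lower genes from *Chl1* at -1.28 to *Dpysl3* at -1.88 to the left.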

How the data were processed

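The authors extracted the scans in Agilent Feature Extraction 9.5.3.1. Per the file headers the deposited tables hold, per spot, the intensity of both channels and of the local background on a linear scale, processed intensities, the log10 of their red over green ratio, and flags. A further deposited table holds log2 values which the authors normalized with Aquantile. Set against the scanner values these were levels of the CPE channel, with a Spearman correlation over probes of 0.998, 0.998 and 0.9997 on the 3 arrays, against 0.25, 0.20 and 0.14 with the ratio. The table was used as an alternative only. Its direction and scale were settled by this, and its columns had medians of 6.86, 6.82 and 6.85. The background correction behind it is not given in the sources used here.

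Scanner tables were read with R 4.3.3 and limma 3.58.1. Mean intensities were corrected with normexp (offset 50) and normalized by loess within arrays, with control and outlier spots at weight 0. Spots of 1 probe were averaged. The limma fit held an intercept, with moderated errors, and covered each probe whose CPE or reference signal was well above background on every array. The error leaves out the spread among animals within the reference. Levels were the log2 mean red intensity without background correction, after Aquantile. The number of arrays limits the precision. Probe coordinates are on mm8, as in the scanner tables, and 90 of 128 member probes (70.3%) matched RefSeq by accession, which updated 1 symbol. No annotation of mm8 was used, so exons are not given. Scripts were tested on simulated data.

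Members, lists and tests were chosen with earlier results of these data known. Named were genes past the threshold, those in the high class, the gene of highest rank in each family and the partner genes furthest from 0. Genes under the 2-fold limit were named after their values were seen. Alternatives were another offset, no background correction, median centring, the scanner's processed signals, other filters, array weights, the treat test, other probe rules, other rankings and leaving out each mouse. The human arrays were not analysed here.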

Additional observations from a re-analysis of the deposited data

How the results depend on the processing

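Of the 15 guidance genes past the threshold, 6 stayed past it under every alternative run, namely *Sema3b*, *Efna5*, *Nrp2*, *Sema4a*, *Sema3c* and *Unc5c*. Of these only *Sema3c* had several tested probes. The rules that take the mean of a gene's probes or the probe of smallest change reuse the same probe for the others. Those rules therefore could not test these calls. With the scanner's processed signals 30 probes and 27 genes were past it (10 genes higher and 17 lower), and all 15 genes were among them. With the treat test 9 probes and 7 genes remained, and 2 partner genes. With median centring 15 guidance genes were past it, without *Epha4*, *Epha2*, *Plxnc1* and *Robo1* and with *Plxnb2*, *Sema6d*, *Robo4* and *Ephb4*, and 17 partner genes. Those guidance genes were 15 of 64 tested, beside 26% of all genes with that scaling and 20.1% in the main fit. With the smaller normexp offset 21 of 64 were past it, beside 23.3% of all genes. Taking the mean of a gene's probes lost *Plxna1*, *Nrp1* and *Plxnc1*, and the probe of smallest change lost these and *Sema3f* and *Ntng1*. *Unc5a* was lost with no background correction and with array weights, and *Plxnc1* without mouse 1. *Ntng1* and *Unc5a* were not tested where both channels had to be above background.

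With the probe of smallest change the sign turned for *Epha7* (0.0234), *Efnb2* (0.103), *Rac1* (-0.445) and *Rhoa* (-0.746). The cause of these changes was not tested. Leaving out 1 mouse gave 17 to 24 probes, 15 to 19 guidance genes, 12 to 14 partner genes, a median ratio from -0.0225 to 0.0657, 3 to 4 genes in the high class and 46 to 59 genes above background. The upper ends of the counts past the threshold and of the high class were without mouse 3, and the upper end of genes above background without mouse 2. No paired analysis was possible because the series has 1 group of CPE samples and 1 common reference RNA. Signal over background limits the low genes, since 24 of the 70 gene names were not well above background in CPE on all arrays.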
